A study of Mus musculus with 28 samples.

Results

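The cell cycle and DNA replication genes described here are a list of 54 genes that cells use to copy their DNA and to divide. They are a fixed list of gene names that applies no threshold to the values, drawn up with earlier results of these data known. Of the 54 genes, 53 had a probe set that names a single gene, out of 18194 genes tested in all, and where a gene had several, the brightest on average across the 28 arrays stands for it. Ccnb1, which encodes cyclin B1, was not analysed here. The 53 genes fall into 21 replication genes, 21 mitosis genes and 11 regulators and proliferation markers.

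Cells that leave rest first load the MCM helicase onto replication origins, with Cdc6 and Cdt1 as loaders, then raise their supply of deoxynucleotides and copy the genome behind PCNA, the sliding clamp of the DNA polymerases. They later enter mitosis under cyclin-dependent kinase 1 and its B cyclins, attach chromosomes to the spindle under the control of the spindle checkpoint, and separate under the anaphase-promoting complex. Replication genes are classic targets of the E2F transcription factors, whereas many mitosis genes carry a different promoter element, the cell cycle genes homology region (CHR), and are transcribed later in the cycle. In adipose tissue mature adipocytes are largely out of the cycle, and dividing cells belong mostly to the stromal and vascular fraction, which includes macrophages, progenitors and endothelium.

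Pads came from 9-week-old mice of the strain that the labels write C57BK/6J, which ate either a diet with 0.5% conjugated linoleic acid (CLA, in its trans-10 cis-12 form), known to lower body fat in mice, or the control diet. Retroperitoneal fat was taken on days 1, 2, 3, 4, 7, 10 and 17 of feeding, which gives 14 groups with 2 Affymetrix arrays each. The pads of 10 mice were pooled, and 15 µg of RNA, extracted with Trizol, went into the biotin labelling. Whether both arrays of a group hold 1 pool or separate pools is not settled by the labels (10 mice per group would make the 140 mice of the series record, and 10 per array would make 280), so that the p-values may measure technical spread only. The question is when the transcripts of DNA replication and division change in the fat pad during CLA feeding. Values are log2 levels, so that a difference of 1 is a doubling. They have no zero point, and levels of different genes are not compared.

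The tissue label was borne out by the adipocyte markers, with Fabp4 at a mean log2 level of 13.81 and Adipoq at 13.19 over all arrays. Skeletal muscle transcripts were present as well. The mean of 6 muscle markers ran from 4.98 to 9.29 on the CLA arrays and from 6.08 to 10.13 on the control arrays. On CLA day 7 it was 4.98 and 8.50. The median muscle difference, CLA minus control, ran from −1.71 on day 7 to 0.75 on day 2. The part of muscle in the results was not tested. Array medians lay between 4.1 and 4.2, and the arrays of a group correlated at 0.979 to 0.995 across genes. The number of arrays limits the precision. One library stood apart in the cell cycle genes. On control day 2 replicate 1 the mean level of the 53 genes was 6.28, against 4.96 to 5.29 on the other 13 control arrays and 6.44 to 8.04 on the 12 CLA arrays from day 2 on. On the same array the mean of 12 macrophage markers was 9.09, against 7.88 to 8.58 on the other control arrays, and the mean of 5 neutrophil markers was 5.78, against 4.39 to 5.62. The neutrophil genes were not alike: S100a8 was at 8.93 and S100a9 at 7.60, against 5.60 and 4.97 on control day 2 replicate 2, whereas Mpo was at 3.42 and Elane at 3.96, against 3.90 and 4.1. Adipocyte markers (7 genes) averaged 10.85 on control day 2 replicate 1, against 10.87 to 11.79 on the other 13 control arrays (11.65 on replicate 2). Endothelial markers (6 genes) averaged 6.23, against 6.19 to 7.23 (7.17 on replicate 2). Results for day 2 are therefore given against each control array as well. A pad with more dividing cells and a pad with more of these transcripts per cell cannot be told apart in such bulk RNA.

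The median difference of the 53 genes was near 0 on day 1, was above 1 on day 2, was highest on days 3 and 4, and was lower again, but still above 1, from day 7 to day 17. Tyms was called higher on no day, and Cdkn1a had its largest difference on day 1. A gene is called changed at an adjusted p under 0.05 from limma over all 18194 genes. On day 1, 1 of the 53 genes was called higher in CLA pads (7.96% of all genes were) and 2 were called lower (10.8% of all genes). On day 2, 44 genes were called higher (4.84% of all genes) with a median log2 difference of 1.45, CLA minus control. On day 3 the count was 52 (11.3% of all genes) with a median of 2.97, and on day 4 it was 51 (12.8% of all genes) with a median of 3.00. Later, 40 genes were called higher on day 7 (8.74% of all genes), 39 on day 10 (10% of all genes) and 41 on day 17 (11.5% of all genes), with medians of 1.42, 1.57 and 1.31. The count was 26 on day 7 without CLA day 7 replicate 1 and 27 on day 17 without CLA day 17 replicate 1. From day 2 on 0 were called lower by limma, and 0 were lower at an unadjusted p under 0.05 on any of these days, against 5.34% of all genes on day 2, 11% on day 3, 11.3% on day 4, 8.57% on day 7, 10.2% on day 10 and 8.78% on day 17. The median of all genes stayed between −0.07 and 0.005 on each day. Over all 7 days, with the day as the unit of replication, 47 genes were called higher (18.7% of all genes), and 0 lower (19.8% of all genes; 0 at an unadjusted p under 0.05). The median difference was 1.59, against −0.03 for all genes.

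**Figure D1:**
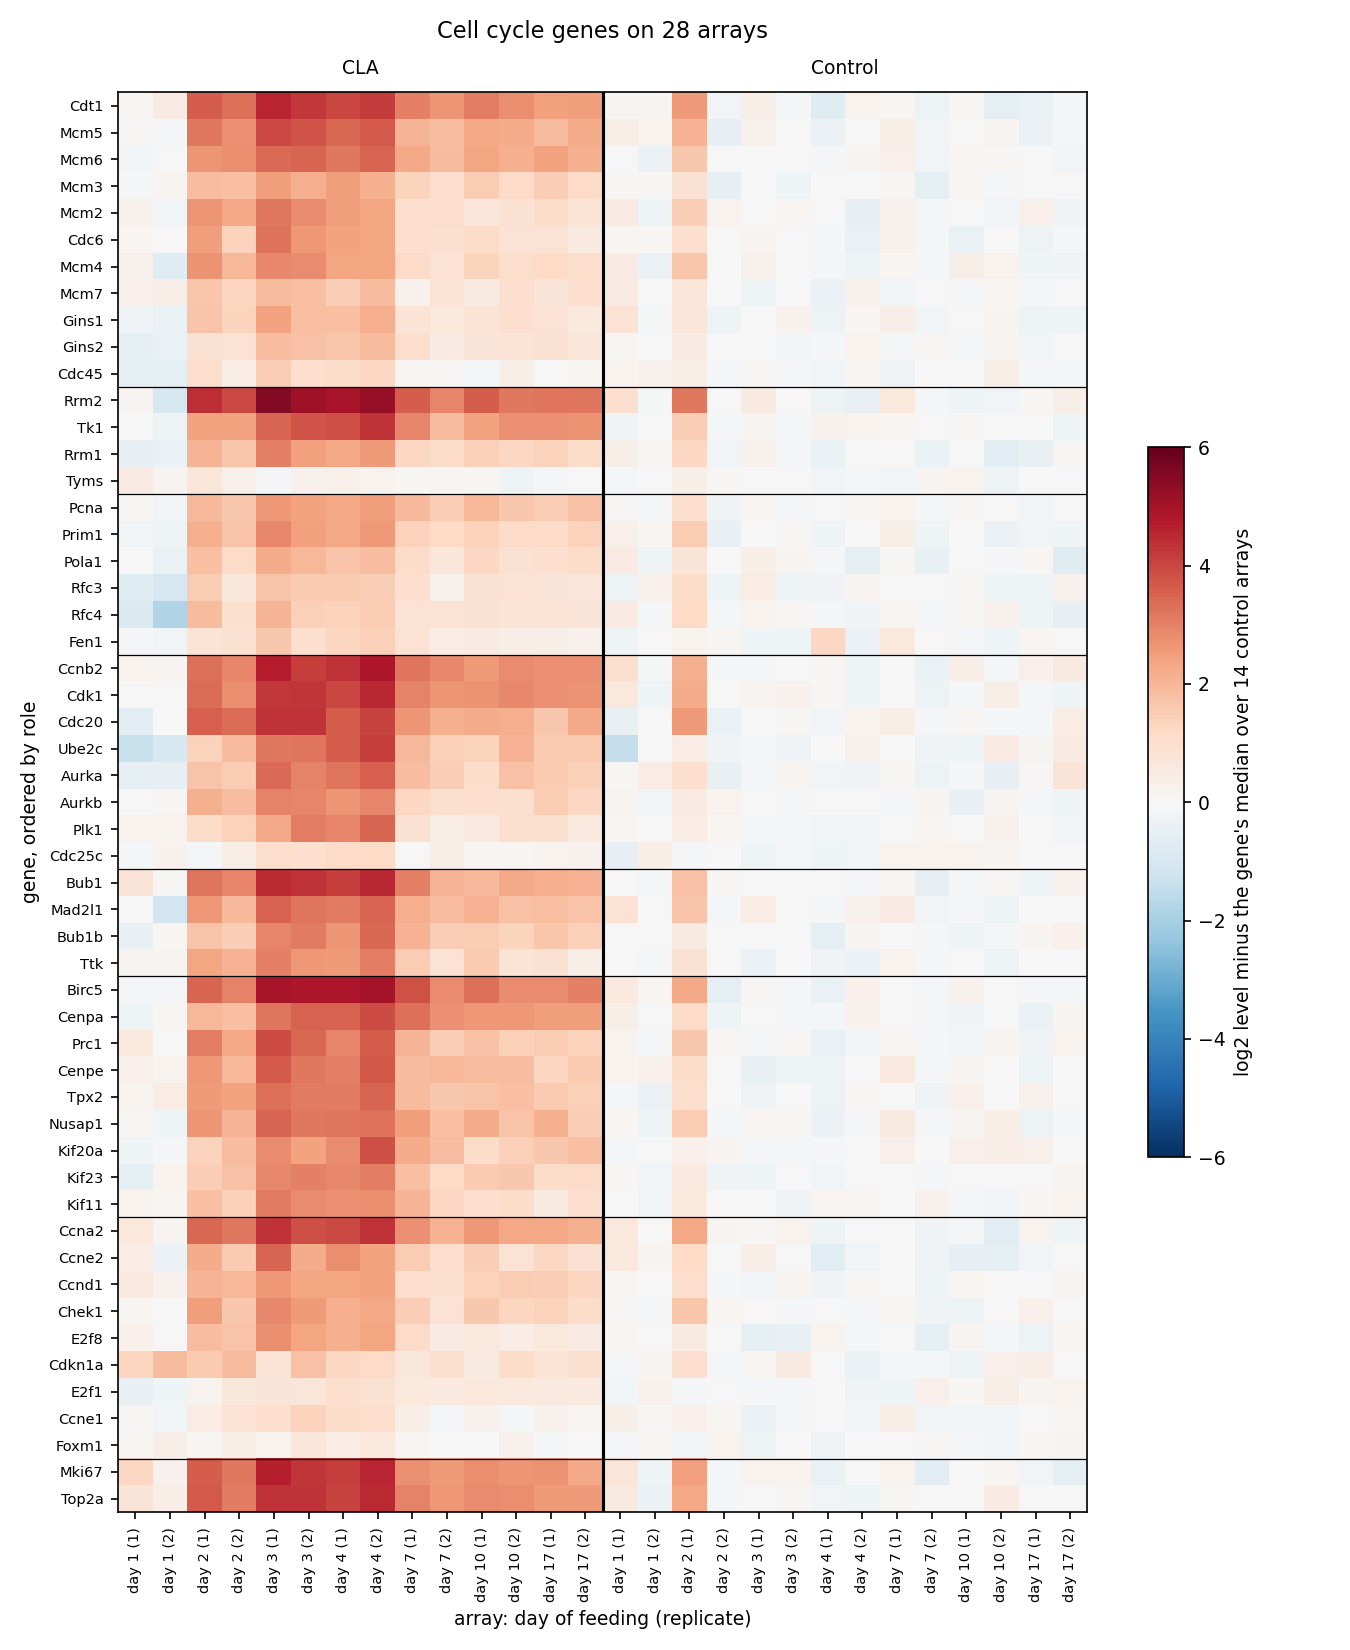
Level of each of the 53 genes (rows, ordered by role from replication licensing at the top to proliferation markers at the bottom) on each of the 28 arrays (columns, CLA left and control right, by day and replicate), as log2 level minus the gene's median over the 14 control arrays. The CLA arrays of days 3 and 4 are the darkest red, the CLA arrays of day 1 are near the control level, and control day 2 replicate 1 is the only control array that is red in most rows.

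The separation of the arrays gave the same course. Both CLA arrays lay above both control arrays for 8 genes on day 1 (22.5% of all genes), 47 on day 2 (19% of all genes), 52 on day 3 (29.1% of all genes) and 53 on day 4 (28.5% of all genes). The counts were 48 on day 7 (23.7% of all genes), 50 on day 10 (23.4% of all genes) and 51 on day 17 (30.1% of all genes). Of the 53 genes, 42 had every CLA array from day 2 on above every control array other than control day 2 replicate 1. That array was set aside after the data were seen. The same count was not made over all genes, so whether 42 is unusual cannot be judged.

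Replication and mitosis genes differed in the share of promoters that hold certain short sequences, a description with no test. Promoters of 300 bases, 250 before to 50 after the transcription start, were taken from RefSeq (build GRCm38.p6) and were found for 42 of the 53 genes. An E2F element, searched on both strands as TTTCCCGC, TTTCGCGC, TTTGCCGC or TTTGGCGC, was present in 8 of 18 replication genes (Cdc6, Cdt1, Mcm3, Mcm5, Mcm6, Mcm7, Pola1 and Rfc3), in 1 of 17 mitosis genes (Cdk1) and in 2.6% of all genes of the table (2.26% of promoters). The core of the CHR, searched as TTTGAA on both strands, was present in 3 of 18 replication genes, 12 of 17 mitosis genes and 20.2% of all genes (17.9% of promoters). The CCAAT box, the site of the factor NF-Y, was present in 12 of 18 replication genes, 14 of 17 mitosis genes and 41.1% of all genes (37.4% of promoters). Both TTTGAA and CCAAT were present in 2 of 18 replication genes, 12 of 17 mitosis genes and 8.97% of all genes. A match of letters is a description of the window and no evidence that a factor binds there.

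The promoters of 4 genes with large rises show what such matches look like. They were picked for their matches, as the E2F-bearing replication genes and the CHR-bearing mitosis genes with the largest differences over all 7 days, and so are no evidence of a contrast. Capitals mark the matches, and the transcription start is base 251 of each line. Cdt1 (chr8:122567765-122568064, plus strand) has 1 E2F match just after the start, Mcm5 (chr8:75109259-75109558, plus strand) has a pair of E2F matches that overlap on opposite strands and 3 CCAAT boxes, Ccnb2 (chr9:70421505-70421804, minus strand) has 2 TTTGAA and 3 CCAAT boxes, and Cdk1 (chr10:69352863-69353162, minus strand) has an E2F match, 2 TTTGAA and 3 CCAAT boxes read as ATTGG.
Cdt1: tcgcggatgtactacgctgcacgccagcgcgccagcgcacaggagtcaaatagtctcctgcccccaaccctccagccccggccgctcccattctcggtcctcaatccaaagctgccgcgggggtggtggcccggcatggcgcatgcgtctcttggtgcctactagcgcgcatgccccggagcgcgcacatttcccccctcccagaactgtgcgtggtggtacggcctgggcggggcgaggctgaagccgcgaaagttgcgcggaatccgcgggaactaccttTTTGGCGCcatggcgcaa
Mcm5: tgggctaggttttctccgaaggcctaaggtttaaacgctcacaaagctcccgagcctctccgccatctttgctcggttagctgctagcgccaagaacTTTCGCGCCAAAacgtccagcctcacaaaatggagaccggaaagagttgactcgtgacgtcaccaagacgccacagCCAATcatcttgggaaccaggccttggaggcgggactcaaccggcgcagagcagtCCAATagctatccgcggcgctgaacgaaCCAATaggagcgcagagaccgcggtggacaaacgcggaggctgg
Ccnb2: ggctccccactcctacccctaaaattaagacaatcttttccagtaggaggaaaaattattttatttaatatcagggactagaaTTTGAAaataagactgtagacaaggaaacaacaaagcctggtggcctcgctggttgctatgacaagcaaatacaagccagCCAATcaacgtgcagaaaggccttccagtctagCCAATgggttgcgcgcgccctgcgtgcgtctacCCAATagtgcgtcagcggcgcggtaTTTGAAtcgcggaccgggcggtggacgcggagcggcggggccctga
Cdk1: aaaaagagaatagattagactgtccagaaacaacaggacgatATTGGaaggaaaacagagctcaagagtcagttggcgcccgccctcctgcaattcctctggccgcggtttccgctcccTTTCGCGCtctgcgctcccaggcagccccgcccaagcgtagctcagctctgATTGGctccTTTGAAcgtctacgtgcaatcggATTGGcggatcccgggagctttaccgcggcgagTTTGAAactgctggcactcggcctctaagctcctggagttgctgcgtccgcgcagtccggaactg

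Of the 11 licensing and origin genes, 10 were called higher over all 7 days, and all 11 on days 3 and 4. Cdt1, whose promoter is shown above and whose protein loads the MCM helicase, had the largest difference of the group. Its log2 level on day 3 was 9.95 and 9.62 in CLA pads, against 5.73 and 5.33 in control pads, a difference of 4.26 ± 0.51 (SE, adjusted p = 5.83e-06 from limma). On day 17 it was still at 7.87 and 7.90 in CLA pads, against 4.99 and 5.30 in control pads. The diets did not overlap on either day. Over all 7 days the difference of Cdt1 was 2.84 ± 0.45 (n = 7 days, adjusted p = 0.00107).

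With the probe sets used, the subunits of the MCM helicase rose by unequal amounts. Mcm5 reached 9.61 and 9.39 in CLA pads on day 3, against 5.88 and 5.64 in control pads, and was 3.74 ± 0.46 higher (adjusted p = 7.59e-06 from limma). Mcm6 reached 10.08 and 10.18 in CLA pads on day 3, against 6.65 and 6.71 in control pads, and was 3.45 ± 0.32 higher (adjusted p = 3.87e-07). The remaining subunits rose on day 3 by 2.93 (Mcm2), 2.72 (Mcm4), 2.46 (Mcm3) and 2.03 (Mcm7), with groups that did not overlap. Mcm5 and Mcm6 were called on each day from day 2 to day 17, as were Mcm2 and Mcm3, whereas Mcm4 missed the threshold on days 7 and 10 and Mcm7 on day 7. The ranking of the subunits depends on the probe set. Over all 7 days a further one gave 2.09 for Mcm2 and 1.875 for Mcm4, against 1.43 and 1.401 for those used. Further ones ran from 0.42 to 1.91 for Mcm3 and from 0.82 to 0.955 for Mcm7. They gave 2.24 and 0.11 for Mcm5, and 2.43 and 0.21 for Mcm6. Differences between subunits were not tested.

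Cdc6, the partner of Cdt1 in loading, was 2.86 ± 0.31 higher on day 3, with 6.60 and 5.97 in CLA pads against 3.52 and 3.34 in control pads. The GINS subunits, which join the helicase when origins fire, rose less: on day 4 Gins1 was 2.10 ± 0.32 higher and Gins2 1.75 ± 0.18 higher. Cdc45, which also joins the active helicase, was called higher on days 3 and 4 alone, by 1.25 and 1.19, and its difference over all 7 days was 0.36 ± 0.23 (adjusted p = 0.254). On day 17 Cdc45 stood at 4.78 and 4.91 in CLA pads, against 4.71 and 4.72 in control pads, so the groups were barely separate.

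Of the genes of nucleotide supply, Rrm2, the regulated subunit of ribonucleotide reductase, had the largest difference of all 53 genes. On day 4 its level was 9.33 and 9.58 in CLA pads, against 4.05 and 3.91 in control pads, a difference of 5.48 ± 0.64 (adjusted p = 2.7e-06 from limma). The control levels of that day lay just under the array median, so the size is uncertain. On day 17 it was 7.57 and 7.59 in CLA pads, against 4.43 and 4.72 in control pads, 8.03-fold higher. Over all 7 days the difference was 3.13 ± 0.65 (adjusted p = 0.0045). Its other probe sets gave 1.34 and 2.33 over all 7 days, so the size depends on the probe set, and the direction does not.

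Tk1, the thymidine kinase of dividing cells, reached 7.73 and 8.18 in CLA pads on day 4, against 4.11 and 4.09 in control pads, and was 3.86 ± 0.35 higher (adjusted p = 2.29e-07 from limma). Rrm1, the constant subunit of ribonucleotide reductase, was 2.60 ± 0.33 higher on day 4. Tyms, which encodes thymidylate synthase, was called on no day. Its level ran from 2.88 to 3.87 (median 3.26) over the 14 CLA arrays and from 2.81 to 3.50 (median 3.14) over the 14 control arrays, below the array median throughout. Its 4 probe sets were all dim, with differences over all 7 days from 0.03 to 0.34, so these arrays say little about Tyms.

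At the replication fork, 5 of 6 genes were called higher over all 7 days. Their median difference over all 7 days was 0.97, and that of the 11 licensing genes 1.43, with no test of the difference; from day 7 to day 17 the fork median was the higher one. Pcna had levels of 12.56 and 12.38 in CLA pads on day 3, against 10.07 and 9.88 in control pads, a difference of 2.50 ± 0.27 (adjusted p = 1.8e-06 from limma). It remained 1.70 ± 0.27 higher on day 17, with 11.42 and 11.70 in CLA pads against 9.80 and 9.92 in control pads. The groups did not overlap on either day. Prim1, the primase subunit that starts each new strand, was 2.64 ± 0.38 higher on day 3, and Pola1, the catalytic subunit of polymerase alpha, was 2.12 ± 0.32 higher on day 4.

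The clamp loader subunits Rfc3 and Rfc4 were called higher on days 3 and 4, by 1.54 to 1.62, and Rfc4 also on day 17. Over all 7 days Rfc4 missed the threshold at 0.76 ± 0.34 (adjusted p = 0.114). Fen1, the nuclease that trims Okazaki fragments, was called on day 3 alone, at 10.12 and 9.52 in CLA pads against 8.24 and 8.24 in control pads. On day 4 it stood at 9.78 and 9.92 in CLA pads, against 9.75 and 8.14 in control pads, so that 1 control array nearly reached the CLA level. A second, dimmer probe set of Fen1 gave a difference of 2.00 over all 7 days, against 0.63 for the one used.

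Among the mitotic kinases, cyclin B and the anaphase-promoting complex, 7 of 8 genes were called higher over all 7 days and all 8 on days 3 and 4. Ccnb2, which encodes cyclin B2, reached 8.46 and 8.97 in CLA pads on day 4, against 4.19 and 3.84 in control pads, a difference of 4.70 ± 0.47 (adjusted p = 4.77e-07 from limma). Cdk1, the kinase that cyclin B activates, reached 9.01 and 9.51 in CLA pads on day 4, against 5.05 and 4.74 in control pads, a difference of 4.37 ± 0.44 (adjusted p = 6.35e-07). For both genes the groups were far apart, and both were called on each day from day 2 to day 17.

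Plk1, the kinase that matures centrosomes and drives mitotic entry, was called on days 2, 3, 4 and 17. It stood at 5.63 and 5.91 in CLA pads on day 2, against 4.98 and 4.65 in control pads, and reached 7.45 and 8.01 in CLA pads on day 4, against 4.39 and 4.39 in control pads. On day 7 it was at 5.46 and 4.92 in CLA pads, against 4.55 and 4.66 in control pads, and was not called (0.59 ± 0.24, adjusted p = 0.114 from limma). The decrease of its CLA difference between days 4 and 7 passed the test itself, at −2.76 (adjusted p = 0.00271).

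Aurka and Aurkb, the Aurora kinases of the spindle poles and of the chromosomal passenger complex, were 3.61 ± 0.34 and 2.79 ± 0.19 higher on day 4. Aurkb also had the smallest adjusted p of the diet by day interaction among the 53 genes. Cdc20, the activator of the anaphase-promoting complex, was 4.28 ± 0.55 higher on day 3, and Ube2c, its ubiquitin-conjugating enzyme, 3.74 ± 0.37 higher on day 4. Cdc25c, the phosphatase that activates Cdk1, was called on days 3 and 4 alone, by 1.21 and 1.38. Its level was at most 4.57 on a CLA array and 3.77 on a control array, and its difference over all 7 days was 0.43 ± 0.19 (adjusted p = 0.112).

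All 4 spindle checkpoint genes were called higher over all 7 days. Bub1, the kinase that recruits the checkpoint to kinetochores, stood at 7.21 and 7.54 in CLA pads on day 4, against 3.08 and 2.90 in control pads, a difference of 4.39 ± 0.38 (adjusted p = 1.31e-07 from limma). The control levels lay under the array median, so the size is uncertain. Bub1b, the pseudokinase BubR1 of the checkpoint complex, Mad2l1, the MAD2 inhibitor of Cdc20, and Ttk, the kinase MPS1 at the head of the pathway, were 3.24, 3.24 and 3.10 higher on day 4. Their later course differed in the calls: Ttk, at 4.51 and 4.01 in CLA pads on day 17 against 3.61 and 3.62 in control pads, was no longer called (adjusted p = 0.135), whereas the other 3 were.

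All 9 genes of the spindle, the kinetochore and cytokinesis were called higher over all 7 days and on each day from day 2 to day 10. Birc5, which encodes survivin of the chromosomal passenger complex, stood at 9.06 and 9.23 in CLA pads on day 4, against 3.80 and 4.54 in control pads, a difference of 4.98 ± 0.54 (adjusted p = 1.22e-06 from limma). On day 17 it was 7.05 and 7.22 in CLA pads, against 4.13 and 4.16 in control pads. These were the largest differences of the mitosis genes on both days.

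Cenpa, the histone variant that marks centromeres, had a flatter course. It was 3.66 ± 0.31 higher on day 4 and 2.62 ± 0.31 higher on day 17, at 7.08 and 7.04 in CLA pads against 4.16 and 4.72 in control pads. Cenpe, the kinetochore motor, was 3.78 higher on day 3, Prc1, the bundler of the central spindle, 3.68, and Tpx2, the activator of Aurora A, 3.30. The motors Kif11 of spindle poles and Kif23 and Kif20a of cytokinesis were 3.10, 3.10 and 2.68 higher on day 3, and Nusap1, which binds spindle microtubules, 3.24. Kif11 was the only one of the 9 not called on day 17, at 4.03 and 4.49 in CLA pads against 3.63 and 3.70 in control pads (adjusted p = 0.0786).

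The 9 regulators split into large and small responders. Ccna2, which encodes cyclin A2 of S phase and G2, reached 8.92 and 9.31 in CLA pads on day 4, against 4.71 and 4.95 in control pads, a difference of 4.29 ± 0.44 (adjusted p = 6.35e-07 from limma). Ccnd1, which encodes the growth-factor-induced cyclin D1, stood at 9.62 and 9.67 in CLA pads on day 4, against 7.04 and 7.32 in control pads, a difference of 2.47 ± 0.24. It was called on each day from day 2 on, and over all 7 days it was 1.52 ± 0.24 higher. Ccne2 and Chek1, which encode cyclin E2 and the replication checkpoint kinase, were 3.00 and 2.31 higher on day 4, and E2f8, an atypical repressor of E2F targets, was 3.06 higher on day 3.

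Ccne1, E2f1 and Foxm1 had small differences; cyclin E1 and E2F1 act at the entry into S phase and FOXM1 activates mitosis genes. Ccne1 was 1.44 higher on day 3 and 1.16 on day 4, and was called on no other day. E2f1 was called on days 3, 4 and 7, with at most 5.92 in a CLA array and 5.20 in a control array. Foxm1 stood at 4.97 and 5.48 in CLA pads on day 3, against 4.46 and 4.77 in control pads (0.61 ± 0.18, adjusted p = 0.0174 from limma), and was also called on day 4. Over all 7 days Foxm1 was at 0.26 ± 0.10 (adjusted p = 0.0765) and Ccne1 at 0.45 ± 0.20 (adjusted p = 0.108), neither called, whereas E2f1 was called at 0.50 ± 0.15 (adjusted p = 0.0286).

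Cdkn1a, which encodes the cyclin-dependent kinase inhibitor p21, was the single member that rose on day 1. It stood at 9.47 and 10.08 in CLA pads on day 1, against 8.10 and 8.35 in control pads, a difference of 1.55 ± 0.34 (adjusted p = 0.0027 from limma). It was called on days 1 to 4, was 1.09 ± 0.11 higher over all 7 days (adjusted p = 8.48e-05), and its day effects were not shown to differ (interaction adjusted p = 0.859). Day 1 was also the day of its largest difference, whereas the other 52 genes had theirs on day 3 or 4. The share of all genes with their largest difference on day 3 or 4 was not counted.

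The proliferation markers Mki67 and Top2a, which encode the Ki-67 antigen and DNA topoisomerase II alpha, were both called higher on each day from day 2 to day 17. Mki67 stood at 7.32 and 6.35 in CLA pads on day 1, against 6.81 and 5.81 in control pads, with overlapping groups. On day 4 it reached 10.24 and 10.64 in CLA pads, against 5.70 and 6.06 in control pads, 4.56 ± 0.52 higher (adjusted p = 2.3e-06 from limma). On day 17 it was 8.76 and 8.36 in CLA pads, against 5.92 and 5.53 in control pads, a 7.14-fold difference. Top2a was 4.48 ± 0.46 higher on day 4 and 2.60 ± 0.46 higher on day 17.

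Replication and mitosis genes were compared by their medians, with no test of the difference. On day 2 the median log2 difference was 1.39 over the 21 replication genes and 1.65 over the 21 mitosis genes. On day 3 it was 2.50 and 3.24, and on day 4 it was 2.36 and 3.47. On day 7 it was 0.98 and 1.83, on day 10 it was 1.11 and 1.61, and on day 17 it was 1.31 and 1.57. The mitosis median was thus the higher one on each of these days, and the gap between the medians was 1.11 on day 4 and 0.26 on days 2 and 17. Both sets were up on day 2, and each member of both sets had its largest difference on day 3 or 4. More replication genes had it on day 3, and more mitosis genes on day 4. From day 3 to day 4 the median change of the CLA difference was −0.055 over the replication genes (−0.675 to 0.46). Over the mitosis genes it was 0.13 (−0.455 to 0.725), and 0 genes of either set were called for this step. A delay between the 2 sets was not tested. The gap on days 2, 3, 10 and 17 depends on the choice of members: without those whose further probe sets disagree (13 replication and 11 mitosis genes left) it was 0.21, 1.11, 0.67 and 0.64.

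**Figure D2:**
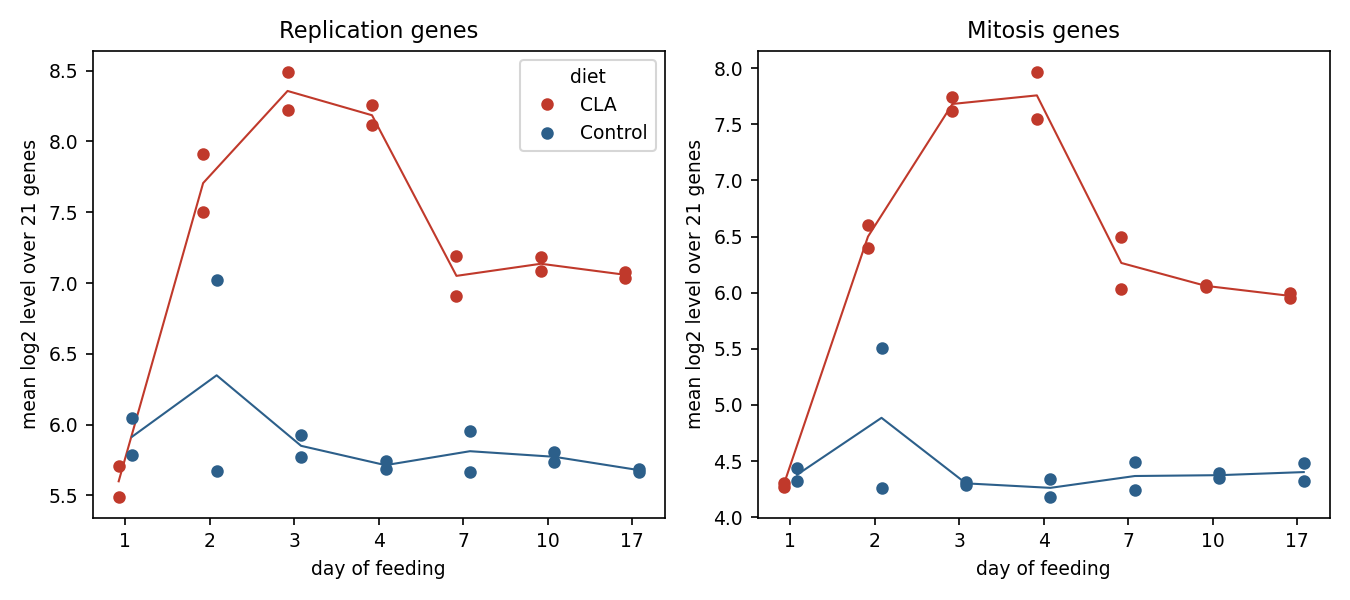
Mean log2 level of the 21 replication genes (left panel) and the 21 mitosis genes (right panel) on each array (points) by day of feeding on an evenly spaced axis, with CLA in red, control in blue, and lines through the means of the 2 arrays. CLA arrays from day 2 on lie above the control arrays of their day in both panels, and control day 2 replicate 1, at 7.02 and 5.51, lies above all other control arrays.

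On day 1 the median difference of the replication genes was −0.30, and that of the mitosis genes was −0.06, and both CLA arrays lay below both control arrays for 8 of the 21 replication genes and 2 of the 21 mitosis genes, against 22.4% of all genes. Rfc4 stood at 4.81 and 3.89 in CLA pads on day 1, against 6.16 and 5.59 in control pads, and fell by 1.53 (SE 0.35, adjusted p = 0.00407 from limma). Cdc45 stood at 4.23 and 4.22 in CLA pads, against 4.98 and 5.01 in control pads, and fell by 0.77 (SE 0.21, adjusted p = 0.0135). The count of 2 lower genes was 6 without control day 2 replicate 1 in the shared fit, 6 with a replicate block, 0 without CLA day 1 replicate 2 and 0 with limma fitted to the 4 arrays of day 1 alone. In the shared fit 8 genes were lower at an unadjusted p under 0.05. The 3′ minus 5′ log2 signal of Actb, a measure of RNA integrity, was 2.72 and 2.28 in CLA pads on day 1, against 2.77 and 1.5 in control pads. It lay between 0.77 and 1.44 on the later CLA arrays and between 1.10 and 1.87 on the later control arrays. On days 3 and 4 it was 1.07, 1.44, 0.77 and 0.84 in CLA pads, against 1.10, 1.81, 1.14 and 1.48 in control pads. The same measure of Gapdh on day 1 was 1.31 and 1.27 in CLA pads, against 1.33 and 0.15 in control pads. The part of RNA integrity in the results was not tested.

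The day 2 comparison depends on which control array is used. Against control replicate 2 alone, 47 of the 53 genes were called higher in CLA pads (7.51% of all genes) with a median of 2.03. Against control replicate 1 alone, 8 were called higher (0.368% of all genes) with a median of 0.88. These 8 were Mcm6 by 1.10, Aurkb by 1.52, Ttk by 1.31, Kif20a by 1.35, Kif23 by 1.04, Tpx2 by 1.41, Ccnd1 by 0.99 and E2f8 by 1.24. When limma was fitted to the 4 arrays of day 2 alone, 0 of the 53 genes were called higher (and 0 of all genes were called), with 35 at an unadjusted p under 0.05. In the fits with 1 control array, that array is assumed to vary like the other groups. By role, 19 of 21 replication genes and 20 of 21 mitosis genes were called against replicate 2, and 1 and 5 against replicate 1.

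Control replicate 1 of day 2 was itself above replicate 2 for 50 of the 53 genes, and by more than 1 for 33 (2.94% of all genes were above by more than 1). The median of replicate 1 minus replicate 2 was 1.23 over the 53 genes and −0.02 over all genes. Rrm2 stood at 8.81 and 8.33 in the CLA arrays of day 2, against 7.53 in control replicate 1 and 4.35 in control replicate 2. Mki67 stood at 9.72 and 9.23 in the CLA arrays, against 8.52 and 6.03 in the control replicates 1 and 2. Relative to the 12 control arrays of the other days, the median gene was 2.06 and 1.83 higher in the CLA arrays of day 2, 1.09 higher in control replicate 1 and 0.03 lower in control replicate 2. Control replicate 2 thus lay among the other control arrays. For 47 genes both CLA arrays were still above both control arrays.

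**Figure D3:**
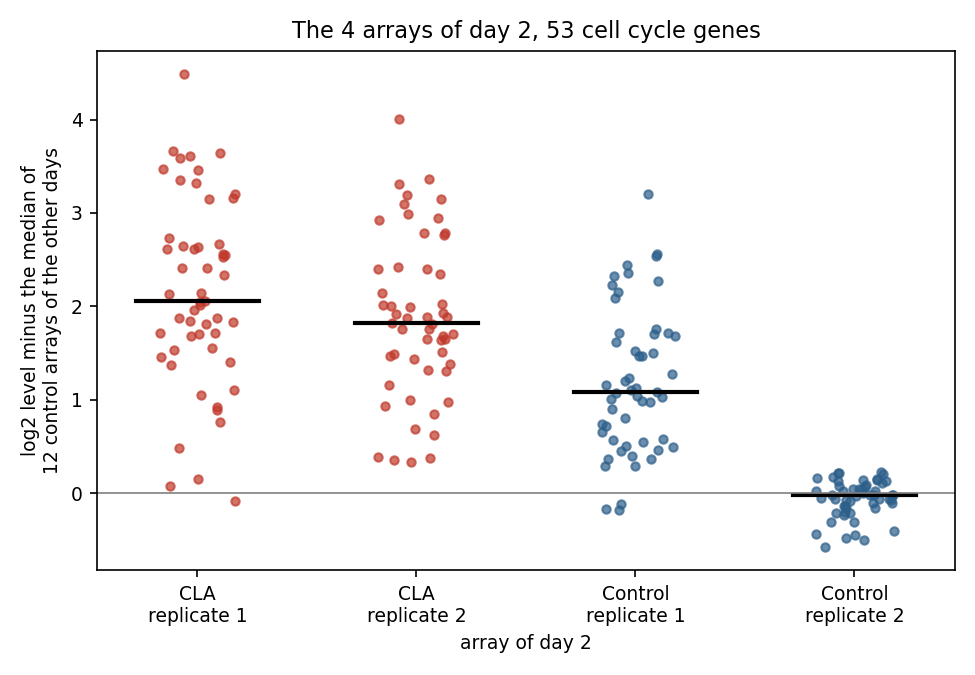
Each of the 53 genes (points, spread sideways at random) on the 4 arrays of day 2, as log2 level minus the gene's median over the 12 control arrays of the other days, with black bars at the medians of 2.06 and 1.83 (CLA), 1.09 (control replicate 1) and −0.03 (control replicate 2). Control replicate 1 lies between the CLA arrays and control replicate 2.

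In the contrast of days 7, 10 and 17 with days 3 and 4, chosen after the course was known, the mean CLA difference was lower on the later days for all 53 genes, and 37 passed the test (2% of all genes were called lower). The median of this change was −1.40 over the 53 genes and −0.04 over all genes. The count was 12 of 21 replication genes with a median of −1.12, and 18 of 21 mitosis genes with a median of −1.76. Plk1 had the largest decrease, by −2.33 ± 0.22 (adjusted p = 9.97e-06 from limma), with a mean difference of 0.70 on the later days and 3.03 on days 3 and 4. Pcna, at 1.70 on the later days and 2.43 on days 3 and 4, and Cenpa, at 2.79 and 3.55, did not pass (adjusted p = 0.123 and 0.18). Of the 6 replication fork genes 0 passed in limma, although all 6 were lower at an unadjusted p under 0.05. Within the CLA arrays alone, 50 of 53 genes were called lower on the later days by limma (4.82% of all genes were).

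**Figure D4:**
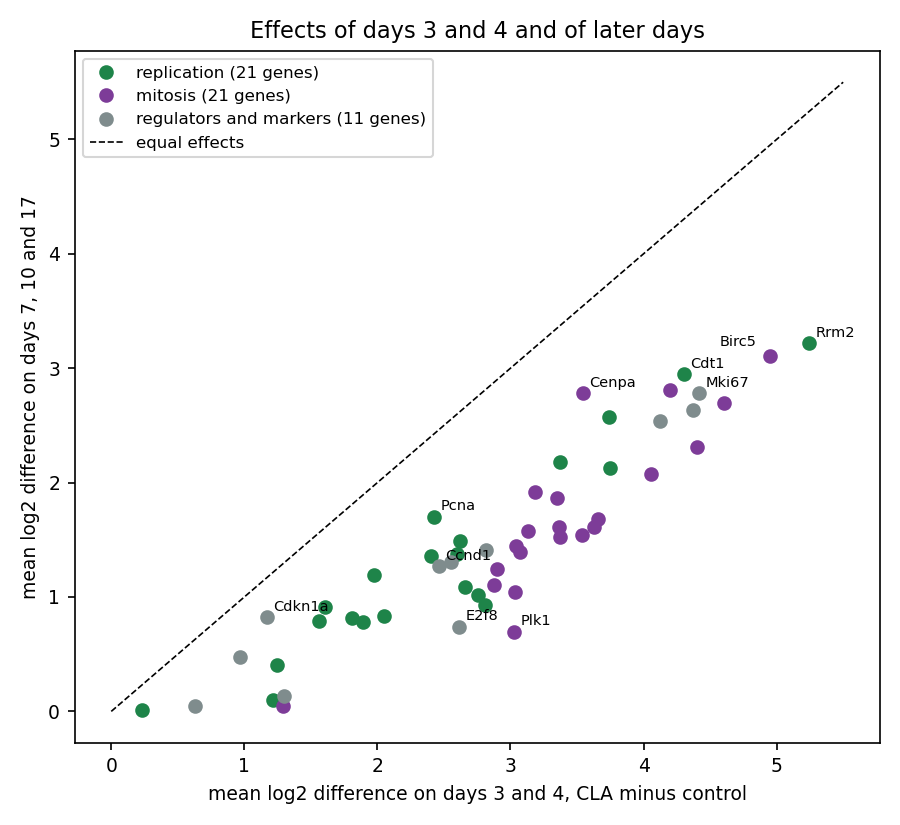
Mean CLA minus control log2 difference of each of the 53 genes on days 3 and 4 (horizontal) and on days 7, 10 and 17 (vertical), coloured as replication, mitosis, or regulators and markers, with the dashed line of equal effects. All points lie below the line; Rrm2, at 5.25 and 3.22, is the farthest out, and Plk1, at 3.03 and 0.70, is among the farthest below the line.

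The course between single days was tested as well. Between days 1 and 2 the CLA difference was called higher for 24 of 53 genes (1.88% of all genes; 48 at an unadjusted p under 0.05). The count was 45 without control day 2 replicate 1, 3 without control day 2 replicate 2, 6 without CLA day 2 replicate 1, and 10 or 11 without CLA day 1 replicate 1 or 2, CLA day 2 replicate 2 or control day 1 replicate 1. Between days 2 and 3 the CLA difference was called lower for 0 genes (0.0055% of all genes; 0 at an unadjusted p under 0.05). Its median change was a rise of 1.43, and 43 genes rose at an unadjusted p under 0.05. The rise was called for 1 gene (0.0879% of all genes), Kif11, by 1.80 (adjusted p = 0.0406 from limma). That count was 37 without control day 2 replicate 2 and 0 without any one of the other arrays of these days but CLA day 3 replicate 1. Between days 4 and 7 it rose for 0 genes (0.0275% of all genes; 0 at an unadjusted p under 0.05) and fell for 2 genes (0.0824% of all genes; 42 at an unadjusted p under 0.05), Plk1, as given above, and Aurkb, by −1.75 (adjusted p = 0.0108). By limma 0 of the 53 genes passed between days 3 and 4, 7 and 10, or 10 and 17, with 1, 1 and 0 genes at an unadjusted p under 0.05. The diet by day interaction was called for 49 of the 53 genes (9.82% of all genes); Tyms, Fen1, Foxm1 and Cdkn1a were the exceptions. Among control pads, the difference between days was called for 0 of the 53 genes by limma (0.115% of all genes), with 1 gene at an unadjusted p under 0.05.

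Markers of other cell types were set beside these values, with no test of a difference in timing. Of 12 macrophage markers, 11 were called higher over all 7 days (18.7% of all genes were called higher and 19.8% lower), and the median difference of the 12 was 0.04 on day 1, 0.86 on day 2, 1.08 on day 3, 1.49 on day 4, 1.87 on day 7, 1.93 on day 10 and 2.22 on day 17. Their mean level per array ran from 9.46 to 10.78 over the CLA arrays from day 2 on, against 7.88 to 9.09 over the control arrays. The cell cycle median was thus highest on days 3 and 4 and the macrophage median on day 17. Of the 12 macrophage markers 9 had their largest difference on day 7, 10 or 17, and 3 (Cd68, Fcgr1 and Itgam) on day 4, and 0 of the 12 macrophage markers were called lower on the later days by limma, with 0 at an unadjusted p under 0.05. Lyz2 and Csf1r, the brightest of them, were 1.37 and 0.75 higher over all 7 days.

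T and B cell markers, 6 of 8 listed being measured, had means of 3.93 to 4.30 on the CLA arrays and 3.99 to 4.30 on the control arrays, near the array median, and by limma 0 were called over all 7 days, with 1 at an unadjusted p under 0.05. Of 6 endothelial markers 5 were called lower over all 7 days, with a median of −0.94, and of 7 adipocyte markers all 7 were called lower, with a median of −1.64. Of 7 markers of adipocyte progenitors and fibroblasts, 3 were called higher and 2 lower, with medians of −0.15 on day 3, −0.10 on day 4 and 0.39 on day 17. Of 6 mesothelial markers 4 were called lower over all 7 days, with medians of −0.90 on day 3, −1.0 on day 4 and −0.35 on day 17, so that their median too was farthest from 0 on days 3 and 4. Neutrophil markers averaged 4.39 to 6.04 on the CLA arrays and 4.39 to 5.78 on the control arrays, the highest control value being that of control day 2 replicate 1. On day 1 they averaged 5.81 and 6.04 in CLA pads, against 4.72 and 4.42 in control pads. On that day 3 of the 5 were called higher (7.96% of all genes) and 0 lower (10.8% of all genes). Over all 7 days 1 was called higher and 1 lower. Which cells carry the cell cycle transcripts was not tested, and no marker list shows it directly.

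**Figure D5:**
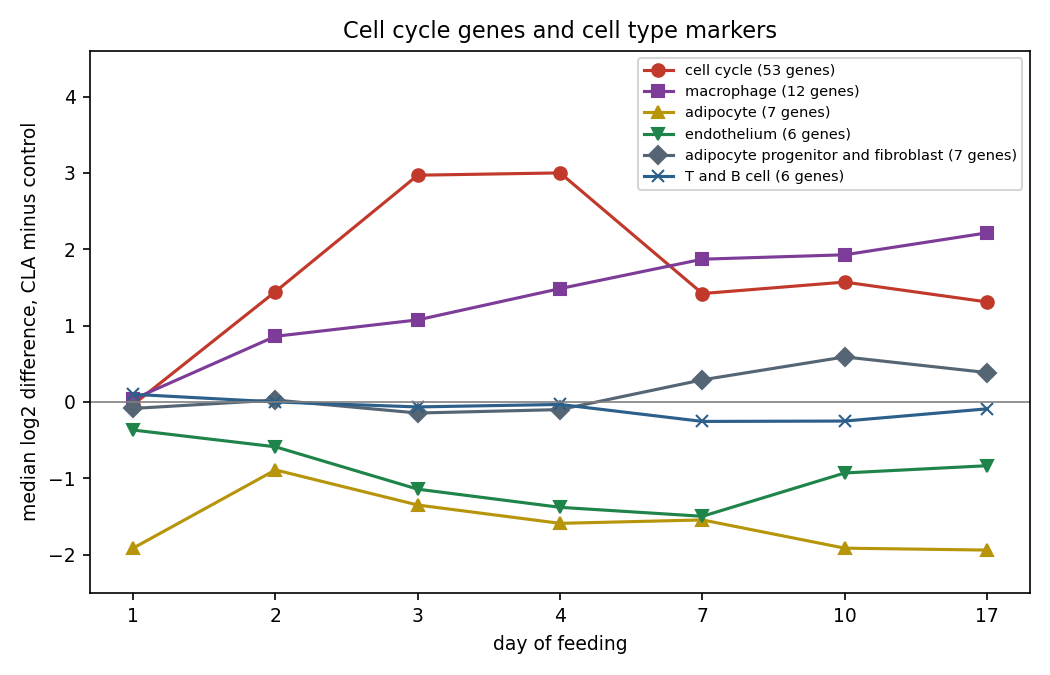
Median log2 difference, CLA minus control, by day of feeding on an evenly spaced axis, for the 53 cell cycle genes and for 5 lists of cell type markers. The cell cycle median is highest at 2.97 and 3.00 on days 3 and 4, the macrophage median rises to 2.22 on day 17, the adipocyte and endothelial medians are below 0 throughout, and the T and B cell median stays between −0.255 and 0.1.

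Further cell cycle genes outside the 53 were counted by role, and their counts read against 18.7% of all genes called higher and 19.8% called lower over all 7 days. Of 40 other mitosis genes, 35 were called higher with a median of 1.71, led by Cdca5, a cohesin protector, at 2.84 and Cep55, a protein of abscission, at 2.56. The single lower one was Pttg1, which encodes securin, at −0.37. Of 33 other replication genes measured (of 36 listed), 19 were called higher and 0 lower by limma (0 lower at an unadjusted p under 0.05). Their median was 0.81, led by Brca1 of DNA repair at 2.90 and Dbf4, the activator of the Cdc7 kinase, at 2.36. The change from days 3 and 4 to the later days was called lower for 32 of the 40 and for 15 of the 33.

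Of 17 other G1 cyclins, kinases and E2F family members, 9 were called higher and 3 lower over all 7 days, with a median of 0.33. Skp2, which marks p27 for destruction, was 1.95 higher and Myc 1.64 higher, while Ccnd2 (cyclin D2) was at −1.07 and Tfdp2, an E2F dimerisation partner, at −0.89. Of 15 inhibitors and quiescence genes, 4 were called higher and 4 lower, with a median of −0.13, shares not far from those of all genes. Cdkn2c, the inhibitor p18, was at −1.34 and Tob1, an antiproliferative protein, at −0.96, whereas Rbl1, the pocket protein p107, was 1.17 higher and Lin9, a subunit of the MuvB complex, 0.49 higher. Of 13 targets of p53 other than Cdkn1a, 5 were called higher and 2 lower, with Plk2 at 1.77 and Mdm2 at 1.29, against Phlda3 at −1.61 and Ccng1 at −0.24.

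Across the 28 arrays, 10 genes outside the list followed the mean of the 53 genes most closely, with Pearson correlations of 0.986 to 0.992. They were Nuf2, Fignl1, Ncapg, Aspm, Shcbp1, Spc25, Cdca5, Cip2a, Brca1 and Cep55. Among the 53 genes, correlation with the mean of the others was above 0.9 for most and lowest for Tyms at 0.346, Foxm1 at 0.577, Cdkn1a at 0.643, Cdc25c at 0.727 and Fen1 at 0.803. The arrays share their diet and day, so these values describe a common course and carry no test.

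Probe sets set a limit on the sizes. The brightest one was picked over all 28 arrays, CLA arrays included, so a probe set that rises under CLA can be favoured. For Kif11 the further ones gave 1.72 and 0.61 over all 7 days, against 1.52 for the one used. With the mean of a gene's probe sets in place of the brightest, 47 genes were called higher over all 7 days (18.7% of all genes in the main fit). Of the 53 genes, 41 had more than 1 probe set, and for 21 a further one differed by over 1 in its difference over all 7 days. For Top2a the 2 further probe sets gave −0.05 and 0.76, against 2.77 for the one used, and for Cdc20 they gave 0.30 and 1.47, against 2.38. For 14 of the 53 genes the mean control level lay under the array median, a range in which arrays are known to understate fold changes. The probe sets used for 8 genes carry the suffix x_at, which marks probes that can bind other transcripts too, among them those of Rrm2, Mcm5, Cdc20 and Fen1. Another suffix, s_at, is carried by the probe sets used for 5 further genes. Binding to other transcripts was not checked for any gene.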

How the data were processed

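The deposited values are log2 probe-set levels that the authors made with RMA, per the submitters' processing notes (no version given). RMA corrects background, quantile-normalises the arrays and summarises probes. Values ran from 1.90 to 14.18 and were used with no further normalisation or filter. Of 45101 probe sets, 34958 name 1 gene. The annotation build is not given in the sources used here.

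limma 3.58.1 in R 4.3.3 was fitted to 18194 genes. A model of 14 groups (28 arrays, 14 residual degrees of freedom) gave each day, steps between days, the interaction, the later days against days 3 and 4, and the control days. The effect over all 7 days used group means with day as a block (6 residual degrees of freedom). Tests were two-sided, with Benjamini-Hochberg adjustment and a threshold of 0.05. Tests were checked on simulated data, in which the fit over all 7 days found effects present on every day but not those that began on day 3. The simulation changed far fewer genes than the 7007 called over all 7 days here, which makes its adjusted threshold stricter. It therefore does not show how that fit treats late effects in these data. All 53 genes are named. Of other cell cycle lists the 2 largest rises and falls called are named, of marker lists the brightest genes, and the 10 genes most correlated with the members' mean. Neutrophil and single macrophage genes were named after their values were seen. Members and lists were chosen with earlier results of these data known. Alternatives covered normalisation, dim-gene filters, probe set choice, the variance model, a replicate block and single arrays left out. Figures were drawn with matplotlib.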

Additional observations from a re-analysis of the deposited data

Results flagged for a closer look

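For 49 of the 53 genes the CLA difference was not the same on all 7 days, by the interaction F test of limma, adjusted over all genes (9.82% of all genes were called). Among the mitosis genes all 21 were called, with adjusted p-values of Aurkb (7.57e-06), Plk1 (1.78e-05), Kif23 (4.78e-05), Kif20a (5.3e-05), Kif11 (6.47e-05), Cenpa (7.72e-05), Cenpe (0.000102), Bub1b (0.000107), Aurka (0.000109), Tpx2 (0.000135), Ttk (0.00033), Ube2c (0.000349), Bub1 (0.000429), Ccnb2 (0.00054), Birc5 (0.000896), Cdk1 (0.000951), Prc1 (0.00149), Mad2l1 (0.00175), Nusap1 (0.00294), Cdc25c (0.0042) and Cdc20 (0.0123). Among the replication genes 19 of 21 were called, with adjusted p-values of Gins2 (8.62e-05), Tk1 (0.000423), Mcm6 (0.000883), Cdc45 (0.000985), Mcm2 (0.00105), Rrm1 (0.00131), Cdc6 (0.00146), Rrm2 (0.0015), Pcna (0.00236), Rfc4 (0.00265), Gins1 (0.00332), Mcm5 (0.00367), Cdt1 (0.00641), Prim1 (0.00747), Mcm3 (0.00786), Mcm4 (0.00921), Mcm7 (0.0141), Pola1 (0.018) and Rfc3 (0.0423). Among the regulators and markers 9 of 11 were called, with adjusted p-values of E2f8 (6.33e-05), Ccna2 (0.00173), Ccnd1 (0.00202), Ccne1 (0.00317), Top2a (0.00369), Ccne2 (0.00645), Mki67 (0.0123), E2f1 (0.0141) and Chek1 (0.0146). In each of these 49 genes the largest daily difference was on day 3 or 4. The count was 46 to 49 when any 1 array was left out, and 49 with control day 2 replicate 1 left out.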

How the results depend on the processing

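Each count over the 53 genes was recomputed under the alternatives: 24 results gave 297 values, of which 259 stayed close to the reported value, 38 moved and 0 reversed. A count was held to be close within a factor of 1.5 of the reported one, so a close count can still be clearly lower. With only the 4 arrays of the day fitted, limma called 0 genes higher on day 1 and 0 on day 2 (1 and 35 at an unadjusted p under 0.05). Leaving out single arrays gave 8 to 47 genes on day 2 (24 without CLA replicate 1, 8 without control replicate 2), 26 to 36 on day 7, 27 to 29 on day 17 and 24 to 46 for the later days against days 3 and 4. The low counts were 26 without CLA day 7 replicate 1, 27 without CLA day 17 replicate 1, and 24 without CLA day 4 replicate 2 or control day 3 replicate 1. Without members whose probe sets disagree, the gap of mitosis over replication medians was 0.205 on day 2, 1.105 on day 3, 0.67 on day 10 and 0.635 on day 17. Over all 7 days the count was 45 without either replicate number.

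The steps from day 1 to day 2 and from day 2 to day 3 moved with the processing. The step from day 1 to day 2 was called for 45 genes without control day 2 replicate 1 (chosen after seeing the data), 15 with the probe set of highest variance and 46 with a replicate block, and for 3 to 45 with single arrays left out. The step from day 2 to day 3 was called for 0 genes without control day 2 replicate 1, with arrays centred on their medians, with genes of mean level 5 or more, with the probe set of highest variance and with quantile normalisation. It was called for 4 with a trended and robust variance, 2 with genes of at least 6 on at least 2 arrays, 4 with the mean of a gene's probe sets, 23 with a replicate block, and 0 to 37 with single arrays left out. The cause was not tested. For single genes over all 7 days, 935 values held 26 lost calls (6 genes) and 0 reversed directions.

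The labels reuse replicate numbers across groups. Deviations of same-numbered arrays correlated at 0.0978 (day 7) to 0.566 (day 1), all above 0; since day 7 missed the minimum of 0.1, the numbers were not taken to pair samples. The replicate block gave 47 genes on day 2 and 45 on day 17, and 6 lower genes on day 1 in place of 2.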
